A study of Mus musculus with 35 samples.

Results

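The immediate early AP-1 genes described here are 10 mouse genes chosen by symbol: Fos, Fosb, Fosl1, Jun, Junb, Jund, Egr1, Ier2, Atf3 and Dusp1. Of these, 9 were found in a single-cell count table of 19085 genes, and Jund is not analysed here. A gene was called measured when it had at least 5 CPM (read counts scaled to the same total on genes in every cell or group) in the 35 cells together, and 5 or more reads in 5 or more cells. By that rule 8 of the 9 genes were measured, as were 8390 genes in all, and Atf3 was not. The table comes from irradiated mouse embryonic fibroblasts (MEFs, cultured connective tissue cells) of strain C57Bl/6J, each cut out by laser and sequenced alone by the full-length Smart-seq2 method. Micronuclei, small bodies of chromatin outside the main nucleus, were present in 21 cells and absent from 14. Both groups had been grown with calf serum at low oxygen, had received 1 Gy, were moved to membrane dishes 32 h later, and were stained for DNA with PicoGreen and captured at 48 h. The labels name no embryo, culture or date, so each group counts as 1 sample: values describe these cells, and no test across cells was made. The 95% intervals cover only the counting of reads or of cells, and no difference between cultures.

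AP-1 is a dimer of bZIP proteins in which a Jun protein pairs with a Fos protein or another Jun protein. Several of its genes, though not all, are transcribed within minutes of a growth factor, damage or stress signal, as are Egr1 and Ier2. The signal passes through MAP kinases that act on SRF with its ETS partners and on CREB, and these unstable transcripts disappear when it ends. Dusp1 is switched on by the same signals and encodes a phosphatase that turns MAP kinases off, while Atf3 encodes a stress-induced bZIP repressor.

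The cells were unequal in depth and quality. A micronucleated cell had a median of 281800 reads on genes (57514 to 1794113) and a cell without micronuclei a median of 736715 (56766 to 2023111), and the median number of genes with at least 1 read was 6812 per micronucleated cell and 6082 per cell without micronuclei. Of 11 fibroblast markers, 3 to 10 had at least 5 reads in each micronucleated cell and 7 to 9 in each cell without micronuclei, although Lum, a proteoglycan gene on that list, had 0 reads in all micronucleated cells. Micronucleated cell 10 stood apart: all 11 macrophage markers had at least 5 reads in it, with a summed level of 16676.1 CPM, beside 9 fibroblast markers. Elsewhere at most 2 macrophage markers reached 5 reads in a micronucleated cell and 1 in a cell without micronuclei. The summed macrophage level reached 1452.5 CPM in the other micronucleated cells and 64.1 CPM in cells without micronuclei. Leaving out cell 10 moved the group log2 ratios of the 8 measured immediate early genes by at most 0.0755, and the median correlation of their pairs to 0.22 from 0.23.

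Compared per length of merged exons, the genes spanned a wide range of levels. Egr1 averaged 97.8 ± 90.5 CPM per kb (SD over 35 cells), Fosl1 76.0 ± 65.0, Ier2 56.6 ± 64.3, Junb 33.9 ± 40.8, Fos 28.8 ± 62.2, Dusp1 25.8 ± 41.1 and Jun 22.4 ± 28.5. Fosb at 1.92 ± 5.12 and Atf3 at 1.69 ± 5.81 CPM per kb were at the bottom. Each neighbouring pair in that order differed by less than the SD of either gene, except Jun and Fosb, whose gap exceeded the SD of Fosb. The place of Fosl1 is uncertain, since a gene on the opposite strand covers 57.2% of its exon bases. Merged exons take in every annotated exon, such as 6243 bases for Fosb and 3311 for Dusp1. Which of them these cells used was not examined, so the order can depend on that choice of length. Egr1 supplied 43.6% of all reads on the 9 genes and was the most abundant of them per length in 10 of 21 micronucleated cells and 8 of 14 cells without micronuclei.

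**Figure D1:**
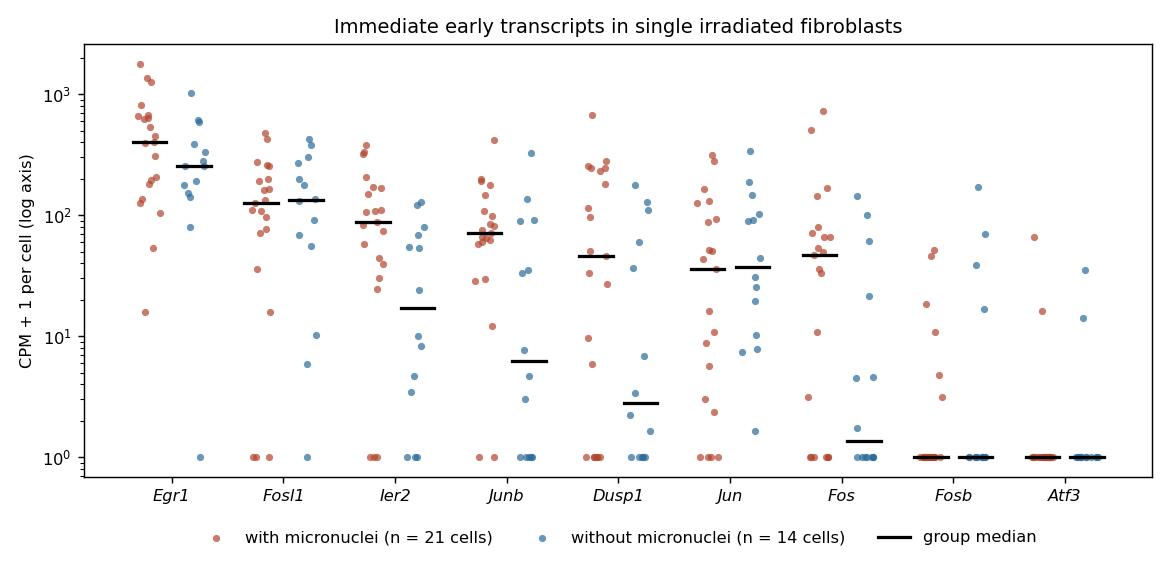
Level of each gene in every cell, as CPM + 1 on a log axis, with 21 micronucleated cells left of 14 cells without micronuclei for each gene and a bar at the group median. The groups overlap for every gene, while the medians of Ier2, Junb, Dusp1 and Fos are higher in micronucleated cells (86.9, 69.5, 44.8 and 46.1 CPM) than in cells without micronuclei (16.05, 5.21, 1.79 and 0.368 CPM).

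Promoters are shown for Fos, Junb and Dusp1, which belong to the pairs of genes that varied together most, and for Jun, which did not follow them. Promoters of 6 of the 10 genes (Fos, Fosb, Jun, Junb, Atf3 and Dusp1) were taken from the RefSeq promoter table (build GRCm38.p6). Egr1 was left out of this step by choice, Jund was not looked up, and no promoter was matched for Fosl1 and Ier2. Each run is the 200 bases before the start site, read in the direction of transcription: Fos on the plus strand at chr12:85473690-85473889, Jun on the minus strand at chr4:95052223-95052422, Junb on the minus strand at chr8:84978749-84978948 and Dusp1 on the minus strand at chr17:26508473-26508672. Capitals mark the letters of the CRE half-site TGACGT or the CRE-like site TGACNTCA on either strand, the kind of sequence that CREB and ATF proteins bind.
Fos: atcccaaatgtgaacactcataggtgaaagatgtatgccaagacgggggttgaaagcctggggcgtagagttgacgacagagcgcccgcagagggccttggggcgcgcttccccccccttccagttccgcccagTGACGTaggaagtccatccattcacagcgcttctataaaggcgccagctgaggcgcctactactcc
Jun: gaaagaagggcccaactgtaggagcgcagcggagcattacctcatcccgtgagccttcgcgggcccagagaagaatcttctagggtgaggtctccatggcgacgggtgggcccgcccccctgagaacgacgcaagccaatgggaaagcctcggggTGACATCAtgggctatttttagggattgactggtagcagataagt
Junb: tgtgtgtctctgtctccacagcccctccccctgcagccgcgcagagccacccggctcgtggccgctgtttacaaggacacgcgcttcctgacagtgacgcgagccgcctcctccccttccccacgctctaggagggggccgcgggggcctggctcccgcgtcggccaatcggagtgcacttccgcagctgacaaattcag
Dusp1: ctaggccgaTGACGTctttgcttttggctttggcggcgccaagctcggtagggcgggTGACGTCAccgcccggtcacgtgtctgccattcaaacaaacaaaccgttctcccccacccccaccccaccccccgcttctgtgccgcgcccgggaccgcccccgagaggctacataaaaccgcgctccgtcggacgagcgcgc

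Motifs were counted on both strands of the 250 bases before the start in these 6 promoters and in all 32851 of the table. TGACGT was found in 3 of 6 (Fos, Dusp1 and Atf3) and in 6.47% of all promoters, and TGACNTCA in 2 of 6 (Jun and Dusp1) and in 7.49% of all. The TGACGTCA of Dusp1, 143 to 136 bases before its start, holds both motifs. The AP-1 site TGANTCA was found in 0 of 6 against 6.75% of all promoters and the SRF CArG box in 0 of 6 against 1.47%, within this window. Egr1 is not among the 6. The GC box GGGCGG was found in 5 of 6 (all but Junb) against 32.74%, the CCAAT box in 2 of 6 (Jun and Junb) against 33.85%, and the TATA box TATAAA in 1 of 6 (Fos) against 12.37%. These matches describe the letters and show no binding.

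The comparison between the groups asks how transcripts of an irradiated fibroblast differ when it carries micronuclei. In reads summed over the cells of a group, 4 of the 8 measured genes were higher in micronucleated cells by a log2 ratio of at least 1 (Dusp1, Ier2, Fos and Egr1), where 22.9% of all measured genes were. At the other end, 1 of 8 was lower by a log2 ratio of -1 or less (Fosb), where 14.7% of all measured genes were. The ratio is of CPM + 1, with micronuclei over without. Its median was 1.07 over the 8 genes and 0.15 over all measured genes. With equal weight for each cell these medians were 0.80 and 0.053. The sign held for 6 of the 8 under equal weights and without each cell in turn, the exceptions being Fosl1 and Jun.

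Among Fos proteins, the partners that need Jun to bind DNA, the 3 genes chosen here differed in direction. Fosl2, also of the Fos family, was not among the chosen genes and was placed with the bZIP partners. Its log2 ratio was 0.013, and it had at least 5 reads in 17 of 21 micronucleated cells and 12 of 14 cells without micronuclei. Fos itself (GRCm38 chr12:85473890-85477273, plus strand) had a lowest level of 0, a median of 46.1 and a highest of 724 CPM in micronucleated cells, and a lowest of 0, a median of 0.368 and a highest of 142 CPM in cells without micronuclei. The ranges overlapped, with 4 micronucleated cells higher than every cell without micronuclei, and no read in 6 of 21 micronucleated cells and 7 of 14 cells without micronuclei. Summed reads gave 134 CPM (interval 127 to 141) in micronucleated cells and 27.7 CPM (interval 24.8 to 30.9) in cells without micronuclei, a log2 ratio of 2.23. A single cell carried much of it: micronucleated cell 14 held 58.9% of all Fos reads, and without it the log2 ratio was 0.63. Leaving out cell 4 without micronuclei gave 3.55. At least 5 Fos reads were found in 12 of 21 micronucleated cells (57.1%, 34.02 to 78.2) and in 4 of 14 cells without micronuclei (28.6%, 8.39 to 58.1), Clopper-Pearson intervals that overlap.

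Fosb, a close relative of Fos (chr7:19302696-19310051, minus strand), was rare. It ranged from 0 to 50.3 CPM in micronucleated cells and from 0 to 168 CPM in cells without micronuclei, with a median of 0 in both groups. Only 2 of 21 micronucleated cells and 4 of 14 cells without micronuclei had at least 5 reads. The log2 ratio of summed reads was -1.99, from 2.62 CPM in micronucleated cells and 13.3 CPM in cells without micronuclei. It was -0.85 when cell 9 without micronuclei, the source of 51.1% of the reads, was left out, -2.76 when micronucleated cell 8 was, and -0.55 as a difference of mean log2 CPM per cell.

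Fosl1, which encodes FRA-1, a Fos protein that lacks the transactivation domain of FOS (chr19:5447547-5455946, plus strand), was close in the groups. Its median was 126 CPM (range 0 to 479) in micronucleated cells and 133 CPM (range 0 to 424) in cells without micronuclei. The log2 ratio was 0.27 in summed reads and -0.083 with equal weights. At least 5 reads were found in 16 of 21 micronucleated cells and 13 of 14 cells without micronuclei. Per length Fosl1 exceeded Fos in 14 of 21 micronucleated cells and 12 of 14 cells without micronuclei. With Fosl2 not counted, Fosl1 was the only Fos family gene with 5 reads in 5 micronucleated cells and 7 cells without micronuclei. Ccdc85b on the opposite strand covers 57.2% of its exon bases, and since the sources do not give the strand setting of the counting, reads of the pair cannot be told apart and Fosl1 values are uncertain.

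The Jun family supplies the subunits present in classical AP-1 dimers. Jun (chr4:95049034-95052222, minus strand, a gene of 1 exon) had a median of 34.7 CPM (range 0 to 313) in micronucleated cells and 36.3 CPM (range 0.659 to 338) in cells without micronuclei. These ranges nearly coincide, and the log2 ratio of summed reads was -0.19, and -1.02 without micronucleated cell 13. It had at least 5 reads in 11 of 21 micronucleated cells (52.4%, 29.8 to 74.3) and in 12 of 14 cells without micronuclei (85.7%, 57.2 to 98.2). With all cells thinned to a depth of 119337 reads, which 17 micronucleated cells and 13 cells without micronuclei reached, those counts were 7 of 17 micronucleated cells and 6 of 13 cells without micronuclei.

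Junb, a Jun protein that activates transcription less strongly than JUN (chr8:84974484-84978718, minus strand), differed in its median and in detection. Its median was 69.5 CPM (range 0 to 420) in micronucleated cells and 5.21 CPM (range 0 to 328) in cells without micronuclei. Only 1 micronucleated cell exceeded the highest other cell, cell 4 without micronuclei at 328 CPM. The next highest cell without micronuclei was at 135 CPM. Micronucleated cells 13, 8, 9, 3 and 12 exceeded that level, at 420, 196, 192, 177 and 144 CPM. The groups also differed at the low end: 17 of 21 micronucleated cells (81.0%, 58.1 to 94.6) and 6 of 14 cells without micronuclei (42.9%, 17.7 to 71.1) had at least 5 reads. Summed levels were 136 CPM (interval 129 to 143) in micronucleated cells and 69.1 CPM (interval 64.4 to 74.0) in cells without micronuclei, a log2 ratio of 0.96. It was 0.89 with equal weights, 2.48 as a difference of mean log2 CPM per cell and 0.24 in the 21 cells with 5000 to 8000 genes detected at equal depth. Leaving out micronucleated cell 13 gave a ratio of 0.22. Leaving out cell 4 without micronuclei, which held 497 of its group's 802 reads, gave 2.13. Since the ratio lies near 1, it also passed 1 slightly, at up to 1.09, when micronucleated cell 2, 7, 11, 14 or 21 or cell 10 or 11 without micronuclei was left out. Small exon overlaps with opposite-strand genes cover 7.52% of Junb (Prdx2) and 7.28% of Jun (Junos).

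Within single cells the balance of the Jun genes differed by group. Per length, Junb exceeded Jun in 16 of 21 micronucleated cells (76.2%, 52.8 to 91.8) and in 4 of 14 cells without micronuclei (28.6%, 8.39 to 58.1). Jun exceeded Junb in 4 micronucleated cells and in 10 cells without micronuclei. No read minimum was set for this order, so some cells were placed on few reads. Cell 14 without micronuclei had 1 Jun read and 0 Junb reads, and micronucleated cell 21 had 2 and 0. The order was looked at after the values had been seen, and it is a count of cells with no test. At equal depth Junb was above Jun in 13 of 17 micronucleated cells and 4 of 13 cells without micronuclei, and among cells with 5000 to 8000 genes detected at that depth in 11 of 13 micronucleated cells and 4 of 8 cells without micronuclei. With Fosl2 and Jund not counted, a Fos and a Jun family gene together reached 5 reads in 17 of 21 micronucleated cells and 12 of 14 cells without micronuclei. At equal depth the counts were 13 of 17 micronucleated cells and 6 of 13 cells without micronuclei.

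Egr1 encodes a zinc finger transcription factor with its own GC-rich target sites. It was the most widely detected of the genes, with at least 5 reads in 20 of 21 micronucleated cells and 13 of 14 cells without micronuclei. Its median was 399.9 CPM (range 14.97 to 1785) in micronucleated cells and 255 CPM (range 0 to 1012) in cells without micronuclei. Micronucleated cells 5, 11 and 14 were higher than any cell without micronuclei, and cell 7 without micronuclei was the single cell with 0 Egr1 reads among its 2023111. The summed level was 640 CPM in micronucleated cells, interval 625 to 655, and 281 CPM, interval 271 to 291, in cells without micronuclei, a log2 ratio of 1.18. It was 0.91 with cell 7 without micronuclei left out, 0.99 and 0.95 with micronucleated cells 11 and 14 left out, 0.71 with equal weights, 0.84 at equal depth and 0.30 in the 21 cells that had 5000 to 8000 genes detected at that depth.

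Ier2, which encodes a small nuclear protein that takes part in transcriptional control, is a gene of 1 exon (chr8:84661331-84662852, minus strand). Its median was 86.9 CPM (range 0 to 382) in micronucleated cells and 16.05 CPM (range 0 to 128) in cells without micronuclei, with 7 micronucleated cells higher than any cell of the other group. The log2 ratio of summed reads was 2.36, with 157 CPM (interval 150 to 165) in micronucleated cells and 29.9 CPM (interval 26.8 to 33.2) in cells without micronuclei, and it stayed between 2.10 and 2.73 when any 1 cell was left out. With equal weights it was 1.57.

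Dusp1 (chr17:26505590-26562128, minus strand), the feedback phosphatase, had the highest log2 ratio of the 8 genes in summed reads (with equal weights Fos was highest, at 2.00). Its median was 44.8 CPM (range 0 to 668) in micronucleated cells and 1.79 CPM (range 0 to 176) in cells without micronuclei. Again 7 micronucleated cells exceeded the highest other cell, while 6 micronucleated cells and 5 cells without micronuclei had no read. The summed ratio was 2.69, from 150.2 CPM (interval 143 to 158) in micronucleated cells and 22.4 CPM (interval 19.8 to 25.3) in cells without micronuclei. It was 2.13 when micronucleated cell 9 was left out, 3.40 when cell 13 without micronuclei was left out, and 1.65 with equal weights. Atf3 was close to undetected (chr1:191170296-191218039, minus strand): 13 reads in 2 micronucleated cells, cells 4 and 16, and 30 reads in 2 cells without micronuclei, cells 9 and 10.

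**Figure D2:**
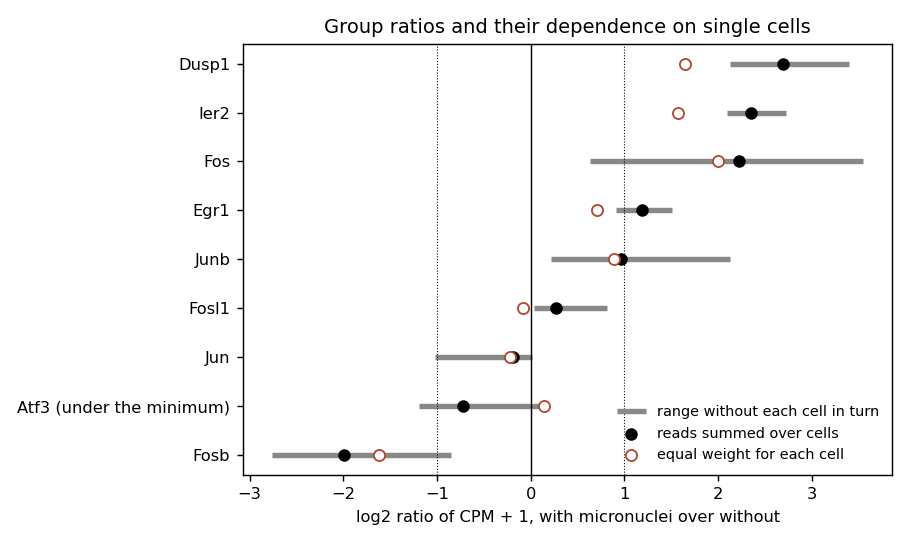
Log2 ratio of CPM + 1, with micronuclei over without, for each gene: filled points for reads summed over cells, open points for equal weight per cell, and grey bars for the range without each cell in turn; dotted lines mark -1 and 1. Dusp1 and Ier2 stay above 1 throughout, the bar of Fos runs from 0.63 to 3.55, and the bar of Jun crosses 0.

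The number of genes detected differed between the groups and varied with some of these genes: across 30 thinned cells its rho was 0.63 with Ier2, 0.52 with Dusp1, 0.50 with Junb and 0.41 with Fos, against 0.32 with Fosb, 0.19 with Fosl1, 0.18 with Jun and -0.051 with Egr1. In cells with 5000 to 8000 genes at equal depth (13 micronucleated cells, median 6707 genes, and 8 cells without micronuclei, median 5843.5), the log2 ratio was 2.14 for Fos, 1.31 for Ier2, 1.36 for Dusp1, 0.24 for Junb, 0.30 for Egr1, 0.27 for Fosl1, -0.80 for Jun and -2.23 for Fosb. Ier2, Dusp1 and Fos were thus still past a log2 ratio of 1 and Egr1 was not. The part of genes detected in the differences was not tested.

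The number of the 9 genes with at least 5 reads in a cell shows how far they shared cells. Its median was 6 (1 to 8, SD 1.91) in micronucleated cells and 4.5 (2 to 9, SD 2.07) in cells without micronuclei, a difference smaller than either SD. Among single genes, 5 of the 8 measured reached 5 reads in a larger share of micronucleated cells, as did 46.7% of all measured genes. At equal depth the medians were 5 in 17 micronucleated cells and 4 in 13 cells without micronuclei. CPM summed over the genes had a median of 971 (157 to 3394) in micronucleated cells and 604 (275 to 1478) in cells without micronuclei, and 5 micronucleated cells exceeded all cells without micronuclei.

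**Figure D3:**
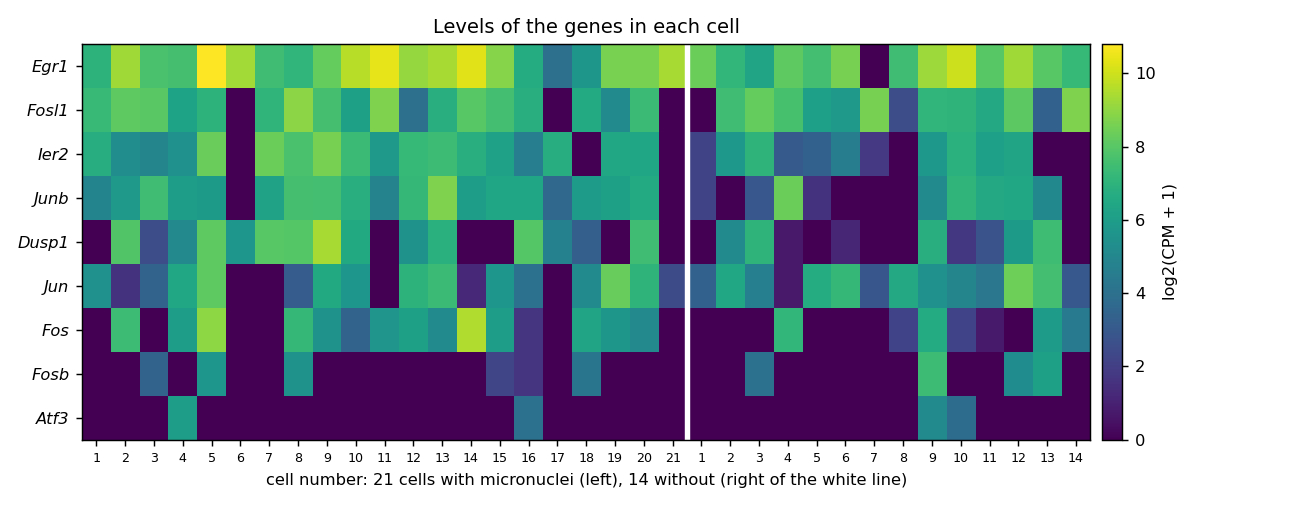
Log2(CPM + 1) of each gene (down) in each cell (across), 21 micronucleated cells left of the white line and 14 cells without micronuclei right of it. Egr1 is at 0 only in cell 7 without micronuclei, and the Junb, Ier2 and Dusp1 lines hold 0 or low values together in micronucleated cell 21 and in cells 1, 7, 8 and 14 without micronuclei.

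Some cells were high in many of the genes at once and others in only a few. Micronucleated cell 5 ranked among the top 5 of all cells for 6 of the 8 measured genes (Fos, Fosb, Jun, Egr1, Ier2 and Dusp1) and had the highest summed level, 3394 CPM. Micronucleated cell 8 was also among the top 5 for 6 genes (Fos, Fosb, Fosl1, Junb, Ier2 and Dusp1), with Egr1 at only 136 CPM. Micronucleated cell 14, the source of most Fos reads, had 1061 Fos reads with 2 Jun reads, 0 Fosb reads and 0 Dusp1 reads. Cell 9 without micronuclei was the one cell where all 9 genes reached 5 reads. In micronucleated cell 21, 287 Egr1 reads stood beside 2 Jun reads and none of the other genes.

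Rank correlations between pairs of genes, taken across the 30 cells thinned to equal depth, were mostly weakly positive. Over the 28 pairs of measured genes the median Spearman rho was 0.23, against 0.066 over all pairs of measured genes, and rho was at least 0.4 in 4 pairs (14.3%, against 3.92% of all pairs). Those 4 were Junb with Ier2 (0.61), Ier2 with Dusp1 (0.57), Junb with Dusp1 (0.45) and Fos with Junb (0.41). Within groups, Junb with Ier2 stood at 0.52 in 17 micronucleated cells and 0.54 in 13 cells without micronuclei, and Ier2 with Dusp1 at 0.55 in those micronucleated cells and 0.60 in those cells without micronuclei. Fos and Jun, the classical AP-1 partners, gave -0.045, and Fosl1 and Jun gave the lowest value of all pairs, -0.31. These are descriptions without a p: the cells share 1 experiment, and the points also share differences in genes detected. The genes behind all pairs were not matched in level to the genes of the 28 pairs.

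**Figure D4:**
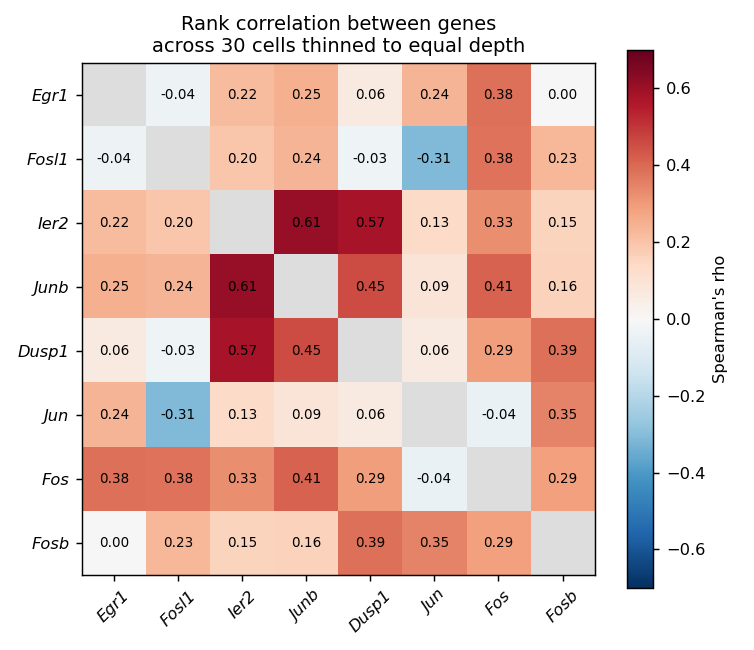
Spearman's rho between each pair of the 8 measured genes across 30 cells thinned to 119337 reads, red above 0 and blue below. Junb, Ier2 and Dusp1 form the darkest block (0.45 to 0.61), and Fosl1 with Jun is lowest at -0.31.

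Junb, Ier2 and Dusp1 all reached 5 reads in 10 of 21 micronucleated cells (47.6%, 25.7 to 70.2) and 3 of 14 cells without micronuclei (21.4%, 4.66 to 50.8). All 3 were under 5 reads in 1 micronucleated cell and 4 cells without micronuclei. The trio was picked after its correlations were seen. Over the 30 thinned cells, the number of the 9 genes with 5 reads followed genes detected with rho 0.68 (0.51 in 17 micronucleated cells, 0.78 in 13 cells without micronuclei). In the 21 cells with 5000 to 8000 genes the median rho of the 28 pairs was 0.12, with 0.43 for Ier2 and Dusp1, 0.21 for Junb and Ier2, 0.10 for Junb and Dusp1, and 0.47 each for Egr1 with Fos and with Jun. The part of genes detected in the pairing was not tested.

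**Figure D5:**
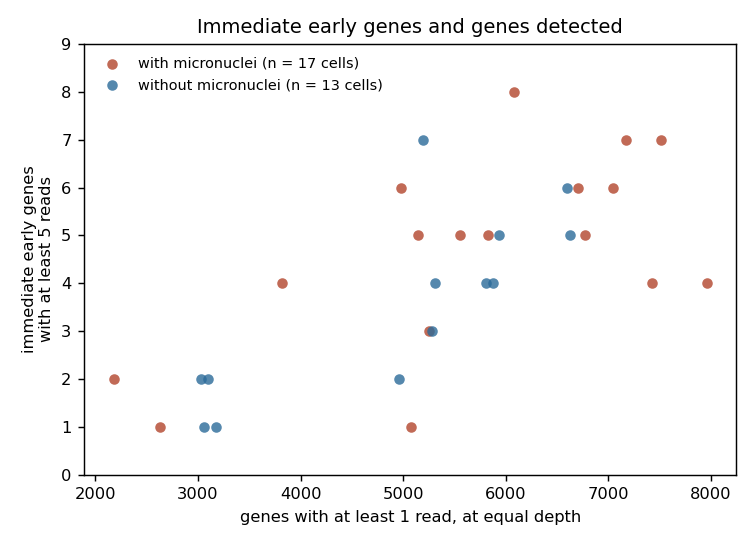
Number of the 9 genes with at least 5 reads (vertical) against genes with at least 1 read (horizontal) in 17 micronucleated cells and 13 cells without micronuclei, all thinned to 119337 reads. Cells with under 4000 genes hold at most 4 of the genes, and the highest count, 8, is micronucleated cell 5 at 6077 genes.

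Of 2697 genes with at least 5 reads in at least 50% of the thinned cells, Zfand5, Lamtor3, Yif1b, Lats2 and Mmadhc were most like the mean log2 level of the 8 genes, with Spearman's rho of 0.74, 0.71, 0.70, 0.69 and 0.69 over 30 cells. Sra1, Bola3 and Uqcc2 were at the other end with -0.53, -0.49 and -0.49, and the median of the compared genes was 0.15. The mean level of the 8 genes itself followed genes detected with rho 0.66, and the 5 most similar genes followed it with 0.50 to 0.68.

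The wider pathway was read through 6 lists of partners, regulators and targets, 64 measured genes in all, of which 18 (28.1%) were higher and 8 (12.5%) lower past the fold, near the 22.9% and 14.7% of all measured genes. The median log2 ratio of the 64 was 0.11. With equal weights 11 were higher and 6 lower, and the share of all measured genes past the fold was not counted that way. The equal-weight median was 0.17 over the 64 genes and 0.053 over all measured genes. None of the lists was tested.

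Of 6 measured bZIP partners, 1 was higher and 1 lower (median -0.098), while with equal weights 1 was higher and 3 lower (median -0.48). Atf7, a JNK-regulated bZIP protein, was higher at 47.4 CPM in micronucleated cells and 4.13 CPM in cells without micronuclei, a log2 ratio of 3.24 that ran from 2.89 (micronucleated cell 14 left out) to 3.99 (cell 6 without micronuclei left out). It had at least 5 reads in only 8 of 21 micronucleated cells and 2 of 14 cells without micronuclei. Mafg, a small Maf protein without an activation domain, stood at 54.2 CPM in micronucleated cells and 28.9 CPM in cells without micronuclei (0.88). Among 15 other immediate early genes, 2 were higher and 2 lower (median 0.32), while with equal weights 1 was higher and 0 lower (median 0.25). The 4 genes named next all stood inside the fold with equal weights: Cyr61 at 0.94, Myc at 0.82, Btg2 at -0.77 and Zfp36 at -0.82. Cyr61, a secreted matricellular protein, was higher at 2523 CPM in micronucleated cells and 1010.0 CPM in cells without micronuclei (1.32), and the growth regulator Myc was higher at 127 CPM in micronucleated cells and 60.7 CPM in cells without micronuclei (1.05). Myc ran from 0.65 (micronucleated cell 13 left out) to 1.99 (cell 8 without micronuclei left out). In the opposite direction, the antiproliferative gene Btg2 was at 62.2 CPM in micronucleated cells and 144 CPM in cells without micronuclei (-1.20), and Zfp36, whose protein speeds decay of AU-rich transcripts, at 37.98 CPM in micronucleated cells and 86.7 CPM in cells without micronuclei (-1.17). Without single cells, Btg2 ranged from -2.35 (micronucleated cell 14) to -0.63 (cell 4 without micronuclei), and Zfp36 from -1.74 (micronucleated cell 14) to -0.48 (cell 5 without micronuclei).

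Among 16 upstream regulators, 4 were higher and 1 lower (median -0.19). With equal weights the counts were also 4 and 1, and the median was 0.17, of the other sign. Srf, the factor that binds CArG boxes, was at 59.2 CPM in micronucleated cells and 15.6 CPM in cells without micronuclei (1.86), and Mkl2, an actin-regulated coactivator of SRF, at 46.7 CPM in micronucleated cells and 17.9 CPM in cells without micronuclei (1.34). Mkl2 gave 2.80 without cell 11 of the group without micronuclei. Rps6ka3, which encodes the ERK-activated kinase RSK2, was at 18.9 CPM in micronucleated cells and 3.36 CPM in cells without micronuclei (2.19), and ran from 1.63 (micronucleated cell 7 left out) to 3.18 (cell 4 without micronuclei left out). It had at least 5 reads in only 7 of 21 micronucleated cells and 2 of 14 cells without micronuclei. Mapk9, which encodes the JUN kinase JNK2, was at 28.5 CPM in micronucleated cells and 106 CPM in cells without micronuclei (-1.85), and at -0.83 without cell 1 of the group without micronuclei.

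Among 11 feedback inhibitors other than Dusp1, 4 were higher and 2 lower (median -0.18), while with equal weights 2 were higher and 1 lower (median -0.37). Spry2, an inhibitor of receptor tyrosine kinase signalling, was lower at 487 CPM in micronucleated cells and 1019 CPM in cells without micronuclei (-1.06), and at -0.54 without cell 7 of the group without micronuclei. Dusp16, a phosphatase of JNK, was at 8.48 CPM in micronucleated cells and 2.33 CPM in cells without micronuclei (1.51), and ran from 0.27 (micronucleated cell 7 left out) to 2.16 (cell 10 without micronuclei left out). It had at least 5 reads in only 4 of 21 micronucleated cells and 2 of 14 cells without micronuclei. Spry4 and Spred1 stood at log2 ratios of 0.64 and -0.78. The 11 inhibitors thus lay on both sides of 0, with 5 above and 6 below.

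Of 10 measured genes commonly listed as AP-1 targets, 3 were higher and 1 lower (median 0.37, and 0.0033 with equal weights). Plau, the urokinase plasminogen activator, was higher at 78.0 CPM in micronucleated cells and 17.1 CPM in cells without micronuclei (2.12), although at least 5 reads were found in 6 of 21 micronucleated cells and 7 of 14 cells without micronuclei, and the ratio ran from 1.49 (micronucleated cell 9 left out) to 2.81 (cell 5 without micronuclei left out). Hmox1, the haem-degrading enzyme, was at 658 CPM in micronucleated cells and 327 CPM in cells without micronuclei (1.01, 0.44 with equal weights, and 0.73 with cell 7 without micronuclei left out). Cd44, the hyaluronan receptor, was lower at 2021 CPM in micronucleated cells and 4397 CPM in cells without micronuclei (-1.12), and ran from -1.28 (cell 4 without micronuclei left out) to -0.90 (cell 11 without micronuclei left out).

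Stress genes related to Atf3 had the highest list median. Of 6 measured, 4 were higher and 1 lower, with a median log2 ratio of 1.26, and 0.70 with equal weights, where 1 was higher past the fold. Ddit3, the gene that was lower, stood at -1.29, and at -0.40 with equal weights. Chac1 stood at -0.46, and at 0.19 with equal weights. Atf4, the effector of the integrated stress response, was at 209 CPM in micronucleated cells and 98.3 CPM in cells without micronuclei (1.08), and Asns, asparagine synthetase, at 249.6 CPM in micronucleated cells and 90.8 CPM in cells without micronuclei (1.45). Atf4 was at 0.81 with cell 7 without micronuclei left out. Ppp1r15a, which encodes the GADD34 subunit that restores translation, was at 119.8 CPM in micronucleated cells and 36.9 CPM in cells without micronuclei (1.67), and Sesn2, a stress-induced regulator of mTORC1, at 35.6 CPM in micronucleated cells and 8.53 CPM in cells without micronuclei (1.94). Micronucleated cell 13 held 37.2% of Ppp1r15a reads and 53.6% of Sesn2 reads, and without it their ratios were 0.96 and 0.65, while Sesn2 was at 2.74 with cell 11 without micronuclei left out.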

How the data were processed

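Whole-number read counts per gene, not normalized, were deposited for 35 cells. Alignment used STAR and build GRCm38.p5, per the submitters' processing notes; per the deposited phenotype table, reads were counted with Rsubread and cells kept with scater at no more than 10% ERCC spike-in reads, at least 2000 genes and at least 40000 counts. Versions and the strand setting are not stated in any source used, so reads of overlapping genes on opposite strands cannot be told apart.

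From these counts, CPM was computed without spike-ins. Each group, as 1 sample, was given by its total reads, with exact Poisson intervals, and shares of cells had exact Clopper-Pearson intervals (95%). Poisson intervals cover the counting of reads only, and they can be too narrow because PCR copies are not marked. Clopper-Pearson intervals treat the cells of a group as independent draws, which the labels do not establish. The log2 ratio is of CPM + 1 and "past the fold" means at least 1 in size. Cells were thinned to 119337 reads without replacement, which left out 4 micronucleated cells and 1 other; Spearman correlations used log2(CPM + 1) of the thinned counts. All 35 cells were used, doublets were not called, 0 of 595 pairs of cells were identical, and 0 columns went unused. The ratio and thinning code was tested on simulated data.

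All 10 genes were to be named where the table held them, with up to 4 genes of each list that kept the largest log2 ratio of one sign over summed reads, equal weights and every left-out cell, and the 5 most and 3 least similar genes. Fosl2, Ddit3 and Chac1 were named in addition. Values of 1 further gene are not reported here. Genes and lists were chosen with earlier results of these data known. Alternatives were mean log2 CPM, equal weights, scaling by TMM or scran, totals without mitochondrial reads, 0.1 or 5 CPM added, no filter or at least 20 CPM and 10 cells, thinning, read minimums of 1 or 10, dropping the 6 cells below 4000 genes or above 9% mitochondrial reads, and dropping each cell. Leaving out micronucleated cell 10 alone in detection, correlations and lists, and the range of 5000 to 8000 genes at equal depth, were added after seeing the data. Positions and exon lengths come from GENCODE on GRCm38 and promoters from RefSeq. Tools were R 4.3.3 with scran 1.30.0 and edgeR 4.0.16 (TMM factors only), and Python 3.11.15 with scipy 1.17.1, pandas 2.3.3, numpy 2.4.6 and matplotlib 3.10.9.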

Additional observations from a re-analysis of the deposited data

How the results depend on the processing

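The number of measured immediate early genes lower past the fold was 1, and 0 with mean log2 CPM per cell and with the stricter filter, under which Fosb was no longer measured; it was 0 to 2 without each cell in turn. The number higher was 4, and 3 to 5 without each cell in turn. Pathway genes higher past the fold numbered 18, and 11 with equal weights, for which the share of all measured genes was not counted. Scaling moved the median log2 ratio of all measured genes from 0.15 to 0.013 with TMM, 0.045 with scran and 0.30 with mean log2 CPM; Fosl1 was at 0.13, 0.16 and -0.16 under those, and the other 7 measured genes kept their sign. The median rho of the 28 pairs was 0.12 to 0.28 over the alternatives. The causes were not tested. No paired analysis was possible because replicate numbers only follow accession order. In the shallowest micronucleated cell, with 57514 reads, a gene at the median Fos level of all cells (9.81 CPM) would give under 1 read, so a zero there does not show absence. Jun reached 5 reads in 12 of 14 cells without micronuclei, and in 6 of 13 of them at equal depth.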
